A study of Mus musculus with 8 samples.

Results

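The genes described here are the D-type cyclins Ccnd1, Ccnd2 and Ccnd3, their partner kinases Cdk4 and Cdk6, the inhibitors Cdkn1b, Cdkn2c and Cdkn2d, the substrate Rb1, and Myc. These 10 genes were taken by symbol from a raw count table of 24062 genes. All 10 had a row and passed the filter on low counts, as did 13197 genes in all.

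Immature myeloid cells (IMCs) were expanded from bone marrow of 2-month C57BL/6 mice for 3 days in α-MEM with M-CSF (40 ng/mL) and 10% FBS, and their total RNA was sequenced. Every mouse carried floxed alleles. The groups PARP1 WT (PARP1 flox/flox) and PARP2 WT (PARP2 flox/flox) had no Cre, whereas PARP1CKO (PARP1 flox/flox+lysozyme-Cre) and PARP2CKO (PARP2 flox/flox+lysozyme-Cre) carried Cre driven by the lysozyme promoter. Each of the 4 groups had 2 libraries, described as biological duplicates with littermate controls. The lysozyme promoter is active in the myeloid lineage, so alleles in cells that do not use it stay floxed. PARP1 WT and PARP1CKO are called the PARP1 line below, and PARP2 WT and PARP2CKO the PARP2 line.

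Growth factor signals such as M-CSF raise D-type cyclins early in G1. A D-type cyclin binds and activates CDK4 or CDK6, which phosphorylate the retinoblastoma protein (RB) and release E2F transcription factors that switch on S-phase genes. The INK4 proteins p18 (Cdkn2c) and p19 (Cdkn2d) bind CDK4 and CDK6 directly, whereas the CIP/KIP protein p27 (Cdkn1b) acts mainly on cyclin E-CDK2 and is held by cyclin D complexes. MYC, a transcription factor paired with MAX, drives growth genes and several cell cycle genes. Cyclin D1 and MYC are both known as targets of β-catenin in other tissues. The study examined β-catenin activity in PARP2-deficient cells and used cyclin D1 as a known target of it. In those cells it reported raised cyclin D1 expression. The comparisons below ask whether the transcripts of the D-cyclin pathway differed.

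The libraries held between 37852450 and 61845125 counts assigned to genes. Parp1 stood at 202 and 211 CPM (gene counts scaled for library depth) in PARP1 WT and at 63.2 and 59.1 in PARP1CKO, a log2 fold change of -1.75 (adjusted p = 0.0134, edgeR quasi-likelihood test). Parp2 stood at 48.2 and 48.3 CPM in PARP2 WT and at 25.8 and 25.6 in PARP2CKO (log2 fold change -0.91, adjusted p = 0.000139). Both targeted transcripts were lower in their own knockout and still present there. PARP2 WT replicate 2 stood apart in Parp1, at 155 CPM beside 251 CPM in its replicate and 263 and 264 CPM in PARP2CKO. Without it, the PARP2CKO log2 fold changes of the 10 genes ran from -0.21 for Ccnd2 to 0.11 for Ccnd1. With it they ran from -0.17 to 0.08. The summed level of all 8 myeloid markers was 8759 to 9420 CPM in PARP1 WT and 6603 to 7383 in PARP1CKO. It was 12770 to 13990 CPM in PARP2 WT and 8986 to 10090 in PARP2CKO, so the WT groups, which had no Cre, did not overlap. Lyz2, the gene that hosts the Cre, ranged from 3495 to 10800 CPM. The sum of the 7 markers other than Lyz2 lay between 3033 and 3344 CPM in the 8 libraries. That of 9 neutrophil markers lay between 2653 and 3489 CPM. Progenitor markers summed to between 80.2 and 120 CPM, B cell markers to between 8.18 and 43.3 CPM, endothelial markers to between 23.2 and 31.5 CPM, erythroid markers to between 3.57 and 11.9 CPM, and T and NK cell and stromal markers to at most 3.54 and 4.69 CPM. Between PARP1 WT and PARP1CKO the sums did not overlap for erythroid (6.97 to 7.21 and 9.54 to 11.9 CPM), T and NK cell (2.22 to 2.40 and 2.80 to 3.54 CPM) and progenitor markers (113 to 120 and 90.4 to 107 CPM). Between PARP2 WT and PARP2CKO they did not overlap for neutrophil (3230 to 3489 and 2894 to 3203 CPM), basophil and mast cell (11.1 to 12.7 and 8.13 to 10.5 CPM) and T and NK cell markers (2.25 to 2.33 and 1.39 to 2.20 CPM). The myeloid sum without Lyz2 did not overlap in either knockout, at 3033 to 3047 CPM in PARP1 WT, 3049 to 3108 with its Cre, 3048 to 3188 in PARP2 WT and 3239 to 3344 with its Cre. The part of these shifts in the knockout values below was not tested.

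None of the 10 genes passed the test in PARP1CKO or in PARP2CKO against its own WT group. The targeted transcripts were reduced there and not absent, with Parp1 at 0.297-fold in PARP1CKO and Parp2 at 0.533-fold in PARP2CKO. Ccnd1, the most abundant of them per kilobase, was 1.06-fold higher in PARP2CKO than in PARP2 WT, with a 95% interval from 0.929-fold to 1.21-fold. In the planned edgeR fit, 0 of the 10 also passed between the WT groups or in the difference between the knockout effects. The differences that passed lay between the PARP1 and PARP2 lines, in a comparison added after the values were seen. Ccnd2, Cdk6, Cdkn1b and Cdkn2d were lower in the PARP2 line than in the PARP1 line when both groups of each line were compared, which is 4 of 10 beside 16.4% of all genes. The calls of Cdkn1b and Cdkn2d held without any 1 library, that of Ccnd2 was lost in 3 of 8 such fits and that of Cdk6 in 7 of 8.

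**Figure D1:**
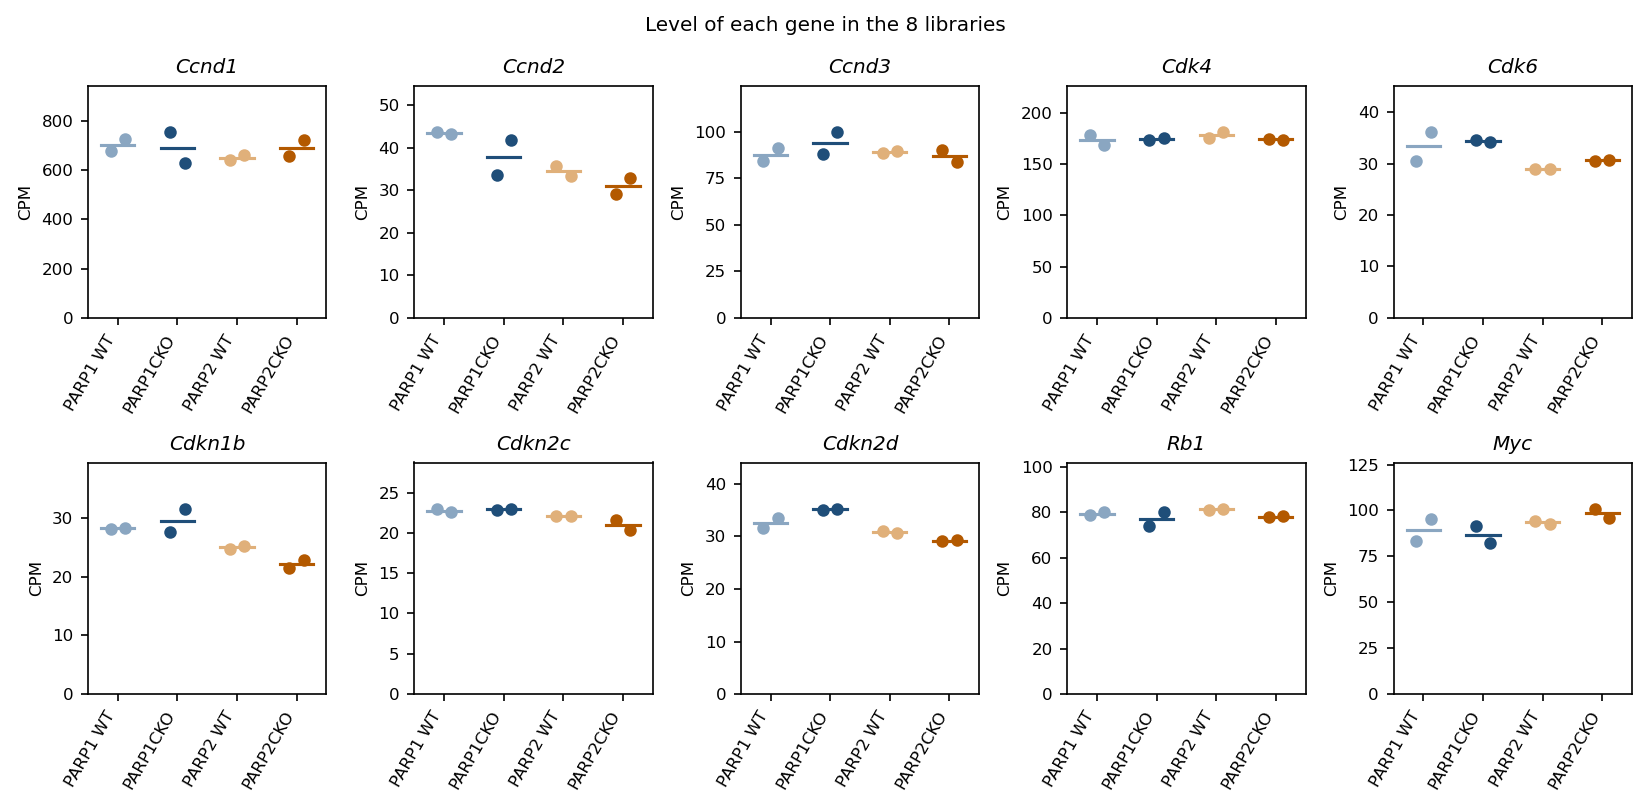
Level of each gene in CPM (vertical axes from 0) in the 4 groups. Each point is 1 library and each horizontal bar the mean of 2 libraries. Ccnd1 spans 630 to 755 CPM with the groups interleaved, and Cdkn1b lies lower in all 4 libraries of the PARP2 line.

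Ccnd1 encodes cyclin D1 and lies at chr7:144929931-144939925 on the minus strand of GRCm38 (mm10). Its level was 679 and 727 CPM in PARP1 WT, 755 and 630 in PARP1CKO, then 643 and 661 CPM for PARP2 WT with 658 and 724 for PARP2CKO. The highest and the lowest of the 8 libraries were both PARP1CKO, and the groups overlapped in both knockout comparisons. The log2 fold change was 0.08 (SE 0.0839, adjusted p = 0.968) in PARP2CKO and -0.02 (SE 0.0840, adjusted p = 0.943) in PARP1CKO. The difference between those effects was 0.11 on the log2 scale (95% interval -0.16 to 0.37, adjusted p = 0.850). From high to low the group means ran PARP1 WT, PARP1CKO, PARP2CKO and PARP2 WT, over a range of 0.109 on the log2 scale, beside a pooled replicate SD of 0.111. No neighbours in that order differed beyond their spread. Leaving out each PARP2 line library in turn moved the PARP2CKO value between 0.01 and 0.15. The opposite-strand gene Oraov1 shares 1100 exon bases, 23.4% of the exon bases of Ccnd1, and whether counting used the strand is not given in the sources used here. Oraov1 had 5056 counts over all libraries, whereas Ccnd1 had at least 26257 in each.

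Ccnd2, which encodes cyclin D2 and lies at chr6:127125162-127152193 on the minus strand, had the widest range of the 10 genes. It stood at 43.7 and 43.4 CPM in PARP1 WT, 33.7 and 41.8 in PARP1CKO, then 35.8 and 33.3 CPM for PARP2 WT with 29.2 and 32.9 for PARP2CKO. Both WT groups lay above their own knockouts with no overlap, yet neither difference passed the test. The log2 fold change was -0.21 in PARP1CKO (SE 0.0970, adjusted p = 0.458) and -0.16 in PARP2CKO (SE 0.0974, adjusted p = 0.954). In PARP1CKO its replicates differed enough that the value moved between -0.37 and -0.06 when 1 library of that line was left out. In PARP2CKO it moved between -0.24 and -0.07.

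Ccnd3 encodes cyclin D3, the D-type cyclin known for its part in lymphocyte and erythroid development, and lies at chr17:47505051-47599691 on the plus strand. Its levels were 84.3 and 91.3 CPM in PARP1 WT, 88.2 and 99.7 in PARP1CKO, then 88.4 and 89.8 CPM for PARP2 WT with 90.1 and 83.7 for PARP2CKO. Groups overlapped in all comparisons, and the log2 fold change was 0.10 in PARP1CKO (adjusted p = 0.603, or 0.005 to 0.18 with 1 library left out) and -0.04 in PARP2CKO (adjusted p = 0.978).

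Per kilobase of annotated exon, Ccnd1 averaged 145 CPM, Ccnd3 10.2 CPM and Ccnd2 3.90 CPM. Cyclin D1 transcripts thus made up 91.1% of the summed D-type cyclin level per kilobase, between 89.4% and 92.2% in the 8 libraries. With the longest transcript as the length the share was 86.3%. Ccnd1 ranked 292 among 12525 genes with a length, so that 97.7% of them were lower per kilobase. The high share of cyclin D1 was therefore a property of all 4 groups.

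**Figure D2:**
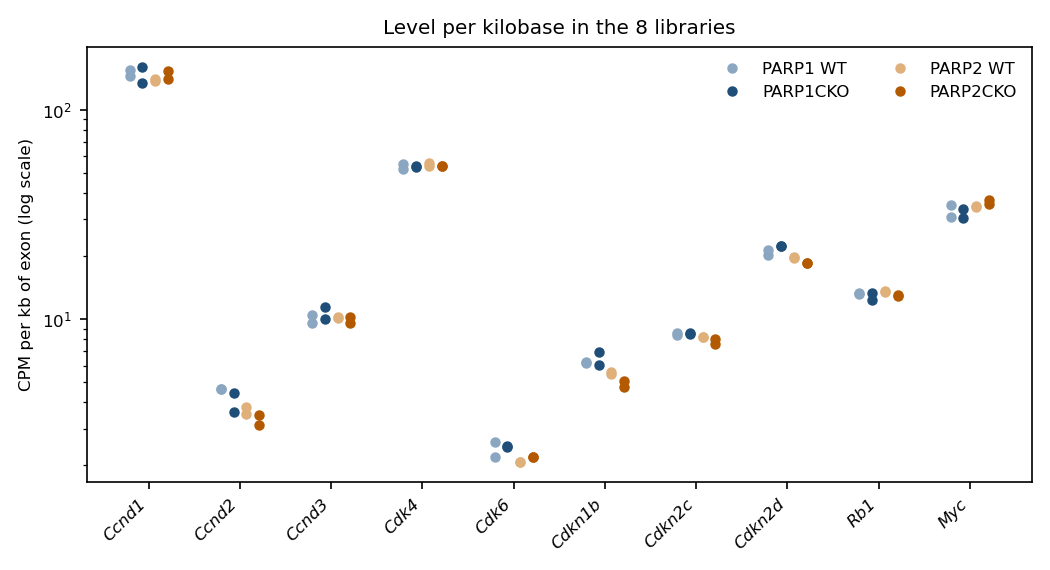
Level of each gene in CPM per kilobase of merged exon, on a log axis, with 1 point for each library and colours for the 4 groups. Ccnd1 lies highest at a mean of 145 and Cdk6 lowest at 2.28, and the differences between genes are much wider than those between groups.

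Cdk4 encodes the main D-cyclin kinase of many cell types and lies at chr10:127063534-127067920 on the plus strand. It was the steadiest of the 10 genes, at 178 and 169 CPM in PARP1 WT, 174 and 176 in PARP1CKO, then 176 and 181 CPM for PARP2 WT with 175 and 174 for PARP2CKO. Its highest library was 1.07 times its lowest. The log2 fold change was 0.01 in PARP1CKO (95% interval -0.09 to 0.10, adjusted p = 0.958) and -0.03 in PARP2CKO (95% interval -0.12 to 0.06, adjusted p = 0.977). The PARP2CKO libraries lay just under those of PARP2 WT with no overlap. Tspan31 on the other strand shares 641 exon bases, 19.7% of those of Cdk4. Tspan31 had 37493 counts over all libraries and Cdk4 between 6904 and 10456 in each, so the Cdk4 level is uncertain where the strand setting is not given.

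Promoter sequences from RefSeq (GRCm38.p6) were matched by symbol for 6 of the 10 genes (Ccnd3, Cdk4, Cdk6, Cdkn1b, Cdkn2c and Cdkn2d), with 8 entries in all. The 250 bases before each RefSeq start were searched on both strands for the TCF letters CTTTGAA as well as CTTTGAT, together with CTTTGTA as well as CTTTGTT, since TCF factors carry β-catenin to DNA, and for the E2F letters TTTCCCGC, TTTGGCGC, TTTCGCGC and TTTGCCGC. A TCF match was found in 1 of the 8 entries, that of Cdk4, beside 14.8% of all 32851 promoters. No E2F match was found in the 8 entries, beside 1.86% of all promoters. After the sequences were seen, the E-box CACGTG, the letters that MYC and MAX are known to bind, was searched too, and it was present in the Cdk4 and Cdk6 entries, beside 6.02% of all promoters. The Cdk4 window held 4 of them, a number reached by 7 of the 32851 promoters (0.0213%). That number was set by the Cdk4 window itself, so the share is a description and not a test.

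The Cdk4 window, chr10:127063285-127063534 on the plus strand, is shown because it carries these matches. Capitals mark the 4 E-boxes, whose starts lie 172, 118, 98 and 11 bases before the gene start, and the TCF match on the minus strand, 52 to 46 bases before it. The matched letters overlap nowhere.
Cdk4: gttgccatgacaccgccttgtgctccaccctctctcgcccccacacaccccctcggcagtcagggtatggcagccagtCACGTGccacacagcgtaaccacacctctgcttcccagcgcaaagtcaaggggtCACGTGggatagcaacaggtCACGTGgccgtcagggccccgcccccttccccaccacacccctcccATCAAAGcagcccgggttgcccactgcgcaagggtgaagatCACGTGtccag

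Cdk6, the kinase most used in haematopoietic progenitors, lies at chr5:3341485-3531008 on the plus strand. It stood at 30.6 and 36.1 CPM in PARP1 WT, 34.6 and 34.2 in PARP1CKO, then 29.0 and 29.0 CPM for PARP2 WT with 30.6 and 30.8 for PARP2CKO. The PARP2CKO libraries were above PARP2 WT with no overlap, by 0.08 on the log2 scale (SE 0.0710, adjusted p = 0.958). In PARP1CKO the log2 fold change was 0.04 (adjusted p = 0.850). Per kilobase, Cdk4 averaged 54.0 CPM and Cdk6 2.28 CPM, so Cdk4 made up 96.0% of the level of both kinases, with a range of 95.3% to 96.4%.

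Cdkn1b encodes p27 and lies at chr6:134920401-134925513 on the plus strand. Its levels were 28.1 and 28.4 CPM in PARP1 WT, 27.6 and 31.6 in PARP1CKO, then 24.8 and 25.3 CPM for PARP2 WT with 21.6 and 22.9 for PARP2CKO. All 4 PARP2 line libraries lay below all 4 PARP1 line libraries, with PARP2CKO lowest. In PARP2CKO the log2 fold change was -0.17 (95% interval -0.33 to -0.01). This was the only member with an unadjusted p under 0.05 in that comparison, at 0.0365, and it did not pass after adjustment (adjusted p = 0.954). In PARP1CKO the value was 0.07 (adjusted p = 0.748), and the difference between the effects was -0.24 (SE 0.0988, adjusted p = 0.632), or -0.33 to -0.14 with 1 library left out.

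Cdkn2c encodes p18 and lies at chr4:109660876-109667189 on the minus strand. It stood at 22.9 and 22.5 CPM in PARP1 WT, 22.9 and 23.0 in PARP1CKO, then 22.1 and 22.1 CPM for PARP2 WT with 21.6 and 20.3 for PARP2CKO. The log2 fold change was 0.01 in PARP1CKO (adjusted p = 0.947) and -0.07 in PARP2CKO (adjusted p = 0.954, or -0.12 to -0.03 with 1 library left out).

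Cdkn2d encodes p19 and lies at chr9:21288410-21291407 on the minus strand. It measured 31.7 and 33.6 CPM in PARP1 WT, 35.1 and 35.3 in PARP1CKO, then 31.0 and 30.6 CPM for PARP2 WT with 29.1 and 29.3 for PARP2CKO. Its libraries were above WT in PARP1CKO and below WT in PARP2CKO, with no overlap on either side. The log2 fold changes were 0.11 (SE 0.0483, adjusted p = 0.447, or 0.07 to 0.15 with 1 library left out) and -0.08 (SE 0.0481, adjusted p = 0.954). The difference between them was -0.19 (95% interval -0.34 to -0.03, unadjusted p = 0.0233), which did not pass over all genes (adjusted p = 0.609). Per kilobase, Cdkn2d made up 59.1% of the summed level of the 3 inhibitors, Cdkn2c 24.1% and Cdkn1b 16.8%. The group means of all 3 inhibitors had the same order from high to low, PARP1CKO, PARP1 WT, PARP2 WT and PARP2CKO, and no neighbours in it passed the test where they were compared.

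The promoter windows of Cdkn1b (chr6:134920151-134920400, plus strand) and Cdkn2d (chr9:21291210-21291459, minus strand) are shown because their genes passed in every refit of the comparison of both groups of each line. Neither held a searched motif, which says only that these letters were not in the window.
Cdkn1b: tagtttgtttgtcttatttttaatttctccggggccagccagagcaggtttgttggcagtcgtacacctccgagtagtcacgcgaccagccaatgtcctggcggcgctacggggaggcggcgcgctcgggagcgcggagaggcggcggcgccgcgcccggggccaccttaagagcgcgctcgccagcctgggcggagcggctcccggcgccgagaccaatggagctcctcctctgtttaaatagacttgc
Cdkn2d: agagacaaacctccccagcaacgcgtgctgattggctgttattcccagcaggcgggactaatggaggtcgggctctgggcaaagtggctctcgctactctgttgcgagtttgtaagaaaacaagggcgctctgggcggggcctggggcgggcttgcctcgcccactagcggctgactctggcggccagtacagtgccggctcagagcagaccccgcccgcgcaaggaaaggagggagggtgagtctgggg

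Rb1, which encodes RB, lies at chr14:73183673-73325822 on the minus strand, 22.4 Mb from Parp2 on the same chromosome. It stood at 78.8 and 80.0 CPM in PARP1 WT, 74.2 and 79.9 in PARP1CKO, then 81.1 and 81.5 CPM for PARP2 WT with 77.7 and 78.5 for PARP2CKO. The PARP2CKO libraries lay below PARP2 WT with no overlap, at a log2 fold change of -0.06 (SE 0.0434, adjusted p = 0.954), and the PARP1CKO value was -0.04 (adjusted p = 0.732). On the other strand, Rcbtb2 shares 488 exon bases (8.11% of those of Rb1) and Lpar6 shares 408 (6.78%). Rcbtb2 had 23995 and Lpar6 11687 counts over all libraries. Rb1 had between 3049 and 4691 in each, so its level is uncertain where the strand setting is not given.

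Myc lies at chr15:61985391-61990374 on the plus strand. Its levels were 83.4 and 95.6 CPM in PARP1 WT, 91.5 and 82.2 in PARP1CKO, then 94.5 and 92.7 CPM for PARP2 WT with 101 and 96.0 for PARP2CKO. PARP2CKO lay above PARP2 WT with no overlap, by 0.07 on the log2 scale (SE 0.0704, adjusted p = 0.968, or 0.04 to 0.11 with 1 library left out). In PARP1CKO the groups overlapped and the value was -0.04 (adjusted p = 0.843).

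Across the 10 genes, 0 passed an adjusted p of 0.05 in PARP1CKO against PARP1 WT by edgeR, where 0.106% of all genes tested passed. In PARP2CKO against PARP2 WT 0 passed, beside 0.0530% of all genes, and in the difference between the effects 0 passed, beside 0.0152%. DESeq2 and the likelihood-ratio test also called 0 in each of these. With backgrounds this low, the members' counts did not set them apart. At an unadjusted p under 0.05 there were 0 members in PARP1CKO (11.3% of all genes), 1 in PARP2CKO (4.83%) and 2 in the difference, Cdkn1b and Cdkn2d (7.69%). Groups did not overlap for 2 of 10 members in PARP1CKO, where 41.2% of all genes had no overlap, and for 8 of 10 in PARP2CKO, where the share was 37.2%. Of those 8, Cdk6 and Myc were higher and Ccnd2, Cdk4, Cdkn1b, Cdkn2c, Cdkn2d and Rb1 lower, with log2 fold changes from -0.17 to 0.08. The median log2 fold change of the members was 0.01 in PARP1CKO and -0.05 in PARP2CKO, beside 0.006 and -0.001 over all genes tested.

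The 95% intervals bound what these libraries allow. In PARP2CKO the widest bounds over the 10 genes were 0.770-fold for Ccnd2 and 1.21-fold for Ccnd1. In PARP1CKO they were 0.744-fold for Ccnd2 and 1.19-fold for Ccnd3. An exact permutation test of 2 against 2 libraries cannot go below p = 0.333, so the p-values rest on the spread that edgeR shares across genes. In bulk RNA, fewer cells that express a gene and less RNA per cell cannot be told apart.

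**Figure D3:**
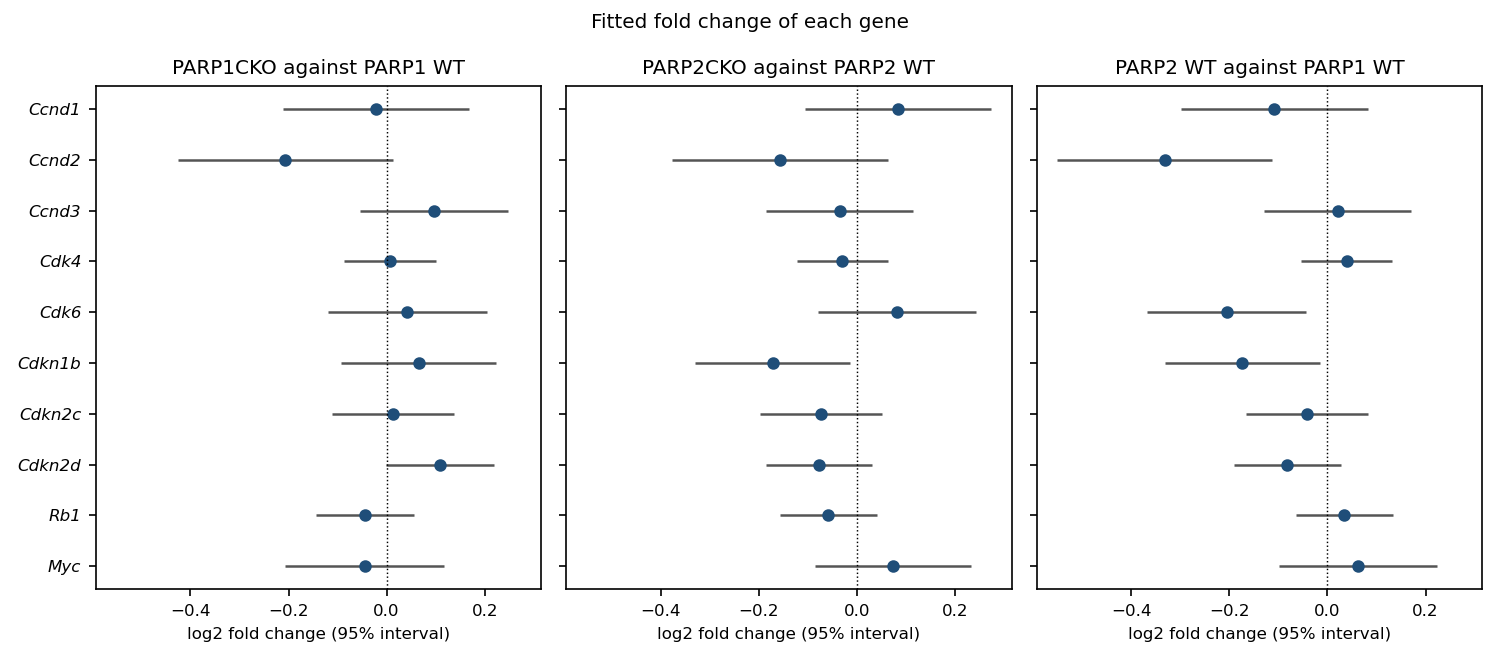
Fitted log2 fold change (points) and 95% interval (lines) of each gene in 3 comparisons, with the dotted line at no change. The knockout values lie between -0.21 and 0.11, and the lowest value in the comparison of the WT groups is that of Ccnd2 at -0.33.

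The WT groups of the floxed lines were compared to place the levels without Cre. They share their libraries with the knockout comparisons above. Here 0 of 10 members passed (smallest adjusted p = 0.115, for Ccnd2), beside 3.16% of all genes. Unadjusted p was under 0.05 for Ccnd2, Cdk6 and Cdkn1b, which is 3 of 10 beside 18.9% of all genes, and groups did not overlap for 7 of 10 beside 51.9%. The log2 fold change in PARP2 WT was -0.33 for Ccnd2 (SE 0.0968), -0.21 for Cdk6 (adjusted p = 0.172, or -0.32 to -0.08 with 1 library left out) and -0.17 for Cdkn1b (adjusted p = 0.226). The Ccnd2 call depended on the fit, since it passed with DESeq2 (adjusted p = 0.0300) and in edgeR fits with no filter (0.0205) or on these 4 libraries alone (0.0283).

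After these values were seen, both groups of each line were compared, 4 libraries against 4, in the same fit. In this comparison 4 of 10 members passed, all lower in the PARP2 line, beside 16.4% of all genes. The log2 fold change was -0.29 for Cdkn1b (SE 0.0494, adjusted p = 0.00570), -0.31 for Ccnd2 (SE 0.0688, adjusted p = 0.0176), -0.18 for Cdkn2d (SE 0.0341, adjusted p = 0.0100) and -0.19 for Cdk6 (SE 0.0503, adjusted p = 0.0369). No overlap between the lines was seen for 3 of 10 members, the inhibitors Cdkn1b, Cdkn2c and Cdkn2d, beside 20.4% of all genes. For Cdkn1b the lines spanned 27.6 to 31.6 CPM and 21.6 to 25.3 CPM, and for Cdkn2d 31.7 to 35.3 CPM and 29.1 to 31.0 CPM. Cdkn2c did not pass (log2 -0.08, adjusted p = 0.174), nor did Ccnd1 (-0.06, adjusted p = 0.556, or -0.12 to 0.01 with 1 library left out). Cdkn2c passed with library size only (-0.13, adjusted p = 0.0416), where 5 members passed. That scaling lowered other members too, with Ccnd1 at -0.10 and Ccnd3 at -0.10. Myc, higher in the PARP2 line, passed without PARP1 WT replicate 2 (0.17, adjusted p = 0.0425).

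Cdkn1b and Cdkn2d passed under all 11 other scalings, tests and left-out libraries for that fit, with adjusted p up to 0.0306 and 0.0421. Ccnd2 was lost without PARP1 WT replicate 1 (adjusted p = 0.0532), PARP2 WT replicate 2 (0.0569) or PARP2CKO replicate 1 (0.0744). Cdk6 was lost on leaving out any library other than PARP1 WT replicate 1, with adjusted p up to 0.111. These refits reuse the same libraries in a comparison chosen after the values were seen, so they are not independent support. The comparison pools groups with and without Cre, so the deletion of different PARPs is part of it. Between the WT groups alone Cdkn1b and Cdkn2d did not pass, at log2 fold changes of -0.17 (adjusted p = 0.226) and -0.08 (adjusted p = 0.408). Between PARP2CKO and PARP1CKO they were -0.41 (adjusted p = 0.00995) and -0.27 (adjusted p = 0.0119), and 2 of 10 members passed there, beside 10.3% of all genes. Between the WT groups, which had no Cre, the floxed allele and anything else that separates the lines, such as litter and culture, cannot be told apart. The difference between the effects compares each knockout with its own WT. It did not pass for Cdkn1b (-0.24, adjusted p = 0.632) or Cdkn2d (-0.19, adjusted p = 0.609). Markers of several other cell types separated the lines without overlap. All 8 B cell markers had counts, and their summed level was 29.6 to 43.3 CPM in the PARP1 line and 8.18 to 11.5 CPM in the PARP2 line. The summed level of 5 progenitor markers was 90.4 to 120 CPM in the PARP1 line and 80.2 to 88.1 CPM in the PARP2 line. For 8 erythroid markers the sums were 6.97 to 11.9 CPM and 3.57 to 4.65 CPM, and for 6 basophil and mast cell markers 14.8 to 21.0 CPM and 8.13 to 12.7 CPM. Their part in the result was not tested.

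The other genes of the pathway were taken from lists. Of the 30 G1/S partners tested (cyclins E and A, CDK2, other inhibitors, E2Fs and ubiquitin ligases) 0 passed in either knockout by edgeR. At an unadjusted p under 0.05 there were 4 in PARP1CKO, beside 11.3% of all genes, and 1 in PARP2CKO, beside 4.83%, and the same shares apply to the lists below. Their median log2 fold change was 0.005 in PARP1CKO and -0.02 in PARP2CKO. Between the WT groups 0 of the 30 passed. In PARP2 WT 24 were lower and 6 higher, at a median of -0.06 beside 0.001 over all genes. At an unadjusted p under 0.05 (edgeR) 8 were lower and 1 higher there, beside 18.9% of all genes in either direction. Ccna2, which encodes the S-phase cyclin A2, was 177 and 184 CPM in PARP1 WT and 166 and 160 in PARP1CKO (log2 -0.15, adjusted p = 0.277). Fbxo31, which encodes an F-box protein known to target cyclin D1, was 0.24 higher on the log2 scale in PARP1CKO (adjusted p = 0.311). Cks1b, a cofactor of the SKP2 ligase that degrades p27, was -0.10 in PARP2CKO (adjusted p = 0.954), and Skp2 itself -0.13 (adjusted p = 0.954).

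Of 19 E2F target genes 0 passed in either knockout, with 3 and 0 at an unadjusted p under 0.05. Their medians were -0.02 in PARP1CKO and 0.006 in PARP2CKO. Between the WT groups 0 of the 19 passed, with 14 lower and 5 higher in PARP2 WT at a median of -0.07. At an unadjusted p under 0.05 (edgeR) 5 were lower and 0 higher, beside 18.9% of all genes. For the lists below, the medians between the WT groups were 0.02 (MYC targets), 0.05 (MYC network), -0.12 (β-catenin) and 0.05 (M-CSF receptor signalling). Rrm1, the large subunit of ribonucleotide reductase, was -0.12 in PARP1CKO (adjusted p = 0.304) and Top2a, the topoisomerase of dividing cells, -0.11 (adjusted p = 0.358). Cdt1, which licenses replication origins, was 0.21 in PARP1CKO (adjusted p = 0.433) and 0.17 in PARP2CKO (adjusted p = 0.954). Gins1, part of the replicative helicase, was -0.11 in PARP2CKO (adjusted p = 0.954).

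Of 14 MYC target genes 0 passed in either knockout. In PARP1CKO 6 of them had an unadjusted p under 0.05, all lower, beside 11.3% of all genes in either direction, with a list median of -0.10 on the log2 scale. Progenitor markers were also lower in PARP1CKO, at 90.4 to 107 CPM beside 113 to 120 CPM in PARP1 WT, and their part in the list was not tested. In PARP2CKO 0 of the 14 had such a p, beside 4.83%, and the list median was 0.006. Nop58, a ribosomal RNA processing factor, was 121 and 122 CPM in PARP1 WT and 105 and 104 in PARP1CKO (log2 -0.22, adjusted p = 0.110). Odc1, the rate-limiting enzyme of polyamine synthesis, went from 135 and 144 CPM to 119 and 113 CPM (log2 -0.27, adjusted p = 0.135). Their difference between the effects was 0.23 (adjusted p = 0.374) and 0.27 (adjusted p = 0.493). In PARP2CKO, Ldha (lactate dehydrogenase A) was 0.11 and Bop1 (ribosome biogenesis) 0.07, each at an adjusted p of 0.954.

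Among 11 genes of the MYC network tested, 2 in PARP1CKO and 1 in PARP2CKO had an unadjusted p under 0.05, and 0 passed. Their medians were 0.08 in PARP1CKO and -0.02 in PARP2CKO. Mnt, a MAX partner that opposes MYC, was 0.18 in PARP1CKO (adjusted p = 0.287), and Max itself 0.09 (adjusted p = 0.433). Mxd1, another such repressor, was -0.27 in PARP2CKO (adjusted p = 0.888) and Zbtb17, a MYC-bound zinc finger factor, -0.10 (adjusted p = 0.954).

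The β-catenin list had 12 of 16 genes with enough counts to test, and 0 passed or had an unadjusted p under 0.05 in either knockout. The tested genes include Ccnd1 and Myc, and the list median was -0.006 in PARP1CKO and 0.05 in PARP2CKO. Ctnnb1, which encodes β-catenin, was 462 and 422 CPM in PARP2 WT and 532 and 458 in PARP2CKO (log2 0.17, adjusted p = 0.954). Axin1, a scaffold of the complex that degrades β-catenin, was -0.06 in PARP1CKO (adjusted p = 0.583). Lef1 and Rnf43 were too low to be read closely, with at most 32 and 45 counts in a library. Lef1, a TCF-family factor, was 0.90 in PARP2CKO (SE 0.520, adjusted p = 0.954), and Rnf43, a ligase for WNT receptors, -0.34 in PARP1CKO (SE 0.293, adjusted p = 0.678). Lef1 is also a lymphoid gene, and B cell markers summed to 9.48 to 11.5 CPM in PARP2 WT and 8.18 to 11.1 in PARP2CKO, and their part in the Lef1 value was not tested.

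Of 10 genes of M-CSF receptor signalling, 0 passed in either knockout, with 0 and 1 at an unadjusted p under 0.05 and medians of 0.04 and 0.009. Pik3cd, a lipid kinase subunit, was 0.09 in PARP1CKO (adjusted p = 0.447) and Spi1, the myeloid factor PU.1, 0.11 (adjusted p = 0.510). In PARP2CKO, Csf1, which encodes M-CSF, was -0.50 on the log2 scale (adjusted p = 0.954).

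**Figure D4:**
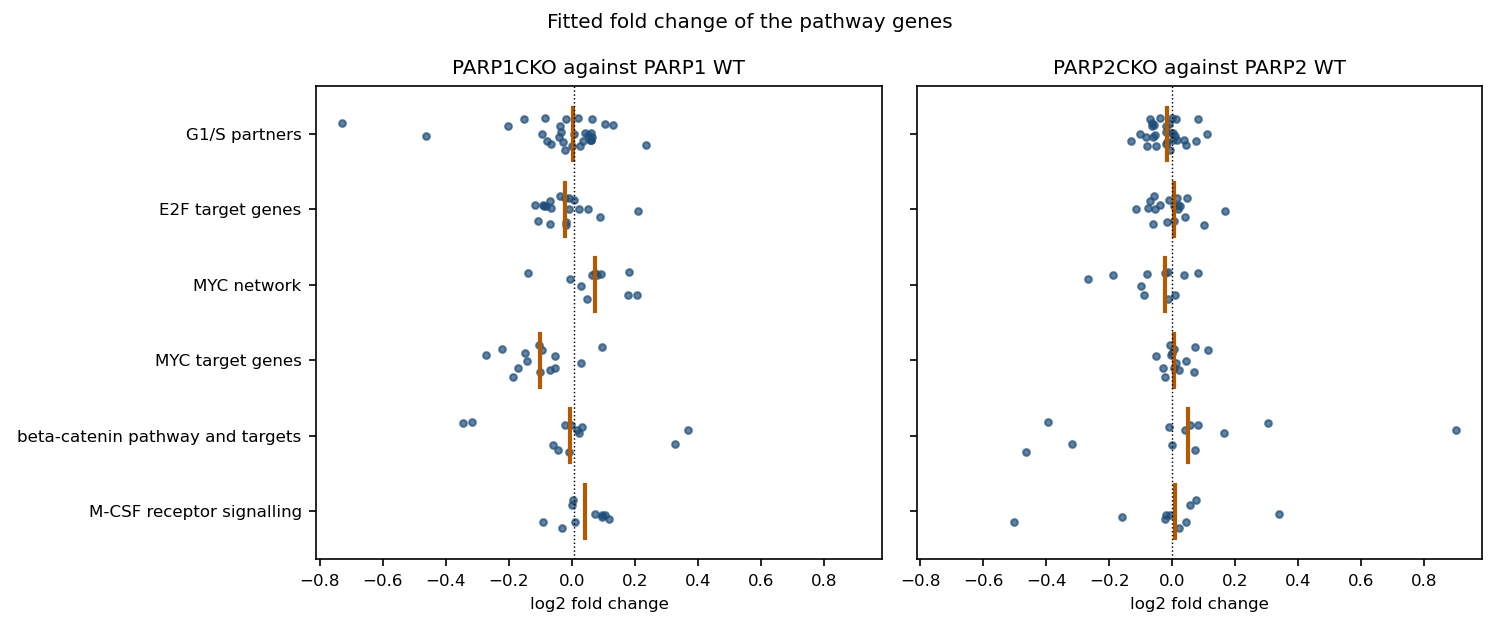
Fitted log2 fold change of each pathway gene (points) in PARP1CKO and PARP2CKO against their own WT groups, by list, with the median of each list as a vertical bar and the median of all genes as a dotted line. The MYC target genes have the lowest median in PARP1CKO, at -0.10, and lie around 0.006 in PARP2CKO.

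The genes whose mean-centred log2 CPM over the 8 libraries was nearest to that of Ccnd1 included Cep41, Basp1, Rtn4 and Xndc1, out of 11446 genes with a mean of at least 1 CPM. Their root mean square difference from Ccnd1 was between 0.0380 and 0.0465 on the log2 scale, while Ccnd1 itself varied by 0.0886 around its mean. Among the other members Cdk6 was nearest, at 0.105, and Ccnd2 farthest, at 0.223. The likeness is a description over 8 libraries of 4 groups.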

How the data were processed

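Total RNA libraries were made with the TruSeq Stranded kit from 4 µg of RNA and read single-end. Per the labels and the study's methods, the authors mapped trimmed reads to mm10 with TopHat2 2.0.12, marked duplicates with Picard 1.127 and deposited raw counts per gene from featureCounts. The annotation, the strand setting and the use of the duplicate marks are not given in the sources used here. From these counts, edgeR 4.0.16 (R 4.3.3) gave TMM factors (0.965 to 1.03), filterByExpr kept 13197 of 24062 genes, and the quasi-likelihood test was fitted on all 8 libraries with 4 group means. Benjamini-Hochberg adjustment ran over all genes tested, with a threshold of 0.05. CPM values are counts scaled by library total and TMM factor, divided by merged exon length (GENCODE M21, GRCm38) where given per kilobase. Replicates differed by more than sampling noise (chi-square per gene 8.69 to 13.1), and the common coefficient of variation was 0.0550. The test was checked on simulated data. The changes planted there were larger than every member value reported here, so the check does not cover changes of that size.

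Members and gene lists were chosen with earlier results of these data known. Named are the members, Parp1, Parp2, the list genes that passed, the 2 list genes with the smallest unadjusted p in each list and knockout, and the 5 genes most like Ccnd1. Some genes that this rule selects are not reported here. Oraov1, Tspan31, Rcbtb2, Lpar6 and Lyz2 were named after their values were seen. Adgre1 was matched by its older symbol Emr1. Alternatives were other scalings, filters, tests, sample sets, a replicate block and leaving out each library. DESeq2 1.42.0 was one of them, and matplotlib 3.10.9 drew the figures. The comparisons of both groups of each line and of PARP2CKO with PARP1CKO were added after seeing the data.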

Additional observations from a re-analysis of the deposited data

Results flagged for a closer look

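Cdkn2d had knockout values of opposite sign in the floxed lines, and neither passed (adjusted p = 0.447 and 0.954, edgeR). Both PARP1CKO libraries lay above both PARP1 WT libraries, and both PARP2CKO libraries lay below both PARP2 WT libraries. Groups also did not overlap for 41.2% of all genes in PARP1CKO and 37.2% in PARP2CKO. The difference between the effects was -0.19 on the log2 scale and did not pass the test over all genes (adjusted p = 0.609, edgeR). It lay between -0.23 and -0.14 when each library was left out.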

How the results depend on the processing

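Of 510 member values under an alternative, 483 kept their direction and stayed uncalled. In PARP2 WT against PARP1 WT, 1 member, Ccnd2, passed with DESeq2, the likelihood-ratio test, no filter or only the 2 groups compared, and 4 passed with both groups of each line. In that last comparison, added after seeing the data, the number called was 2 without PARP2 WT replicate 2 or PARP2CKO replicate 1, and 2 to 4 over all left-out libraries, not always the same members. With only the knockout groups of each line it was 2. With library size only, 3 values of the WT comparison turned: Ccnd3 to -0.018, Cdk4 to -0.00025 and Rb1 to -0.0048. This scaling moved the median of all genes by -0.039 and each of these 3 by -0.039 too.

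The signs of uncalled values also turned when a library was left out. In PARP1CKO the ranges were -0.16 to 0.10 for Ccnd1, -0.035 to 0.044 for Cdk4, -0.072 to 0.17 for Cdk6, -0.035 to 0.16 for Cdkn1b, -0.0033 to 0.022 for Cdkn2c, -0.099 to 0.0091 for Rb1 and -0.14 to 0.055 for Myc. In PARP2CKO Ccnd3 ranged from -0.090 to 0.016. In the difference between the effects they were -0.019 to 0.24 for Ccnd1, -0.099 to 0.21 for Ccnd2, -0.073 to 0.0053 for Cdk4, -0.083 to 0.15 for Cdk6 and -0.068 to 0.041 for Rb1. Between the WT groups they were -0.036 to 0.079 for Ccnd3, -0.00082 to 0.078 for Cdk4 and -0.031 to 0.16 for Myc.

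With the replicate number as a block (replicate block), 0 members passed in each planned comparison, and the calls over all genes were 17 in PARP1CKO, 11 in PARP2CKO, 1 in the difference and 315 between the WT groups, beside 14, 7, 2 and 417. Samples of the same number deviated with correlations of -0.133 in the PARP1 line and 0.147 in the PARP2 line, and the labels used here do not say that a number marks a shared animal or day, so the numbers were not taken as pairs. With the PARP1CKO numbers crossed, 0 members and 46 genes passed.

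Over all genes, other tools gave more calls: in PARP1CKO 86 with DESeq2, 146 with the likelihood-ratio test and 101 with no filter; in PARP2CKO 27, 39 and 26; in the difference 46, 72 and 61; between the WT groups 551, 910 and 872. With the longest transcript as the length, Ccnd1, Ccnd2 and Ccnd3 stood at 183, 5.80 and 23.2 CPM per kb. With 2 libraries a group, the intervals given show which changes these data do not exclude.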
